A study of Zea mays with 48 samples.

Results

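The comparison concerns leaves of the maize bzip60-2 mutant at the V4 stage under a maximum daily temperature of 35 against 33 °C. Its 6 libraries, 3 at each temperature, were chosen by their labels among the 48 libraries of the series. The mutant is named for bZIP60, which acts in the unfolded protein response, and the series links that response to heat stress. The labels used here do not describe the change carried by the bzip60-2 allele. The groups used were bzip60-2 at V4 (20 days after germination) at 35 and 33 °C, set beside the inbred line W22 at V4 and bzip60-2 at V5 (27 days), each at 35 and 33 °C. W22 at V5 at 35 and 33 °C, and bzip60-2 at V4 at 37 and 31 °C, are quoted for the same genes. All groups shared nights 10 °C below the day's maximum, 16 h of light, and lamina from the middle of the newest fully expanded leaf. Plants of 1 temperature grew in chambers of their own, so effects of chamber and of temperature cannot be told apart.

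When misfolded proteins gather in the endoplasmic reticulum of a plant cell, the membrane enzyme IRE1 splices the bZIP60 messenger RNA, and the factor made from the spliced form enters the nucleus and raises genes for chaperones and protein quality control. Heat also sets off heat shock factors, which raise chaperones of the cytosol and the organelles. Most proteins of chloroplasts and mitochondria are encoded in the nucleus. The organelle genomes keep a small set of genes, mainly for photosynthetic and respiratory complexes and for the organelles' own gene expression.

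Transcripts were measured by RNA-seq of poly(A) RNA and deposited as FPKM, a level per transcript length and per library size. In the 6 libraries the values summed to 930196 to 936486 at 35 °C and to 930498 to 941520 at 33 °C. Genes above 0 numbered 25619 to 25832 at 35 °C and 25110 to 25186 at 33 °C. The absolute depth is unknown, and relative depth, read from the steps between low values, was 1.00 to 1.02 at 35 °C and 0.971 to 1.00 at 33 °C. The median coefficient of variation between replicates was 2.29% at 35 °C and 3.32% at 33 °C, over 1350 abundant genes. The 100 most abundant genes held 33.1% to 33.8% of all FPKM at 35 °C and 35.8% to 36.9% at 33 °C. Size factors, which set the typical gene of each library equal, were 0.979 to 0.994 at 35 °C and 0.873 to 0.903 at 33 °C. Results are therefore given both as deposited and after scaling by these factors. Across the series, transcript Zm00001d033132 divided the libraries at 10 FPKM in a way the labels do not name: all 6 mutant libraries compared here lay above (92.4 to 169 FPKM at 35 °C and 140 to 283 at 33 °C), while at 35 or 33 °C the 6 W22 libraries of V4, like the mutant's V4 libraries at 31 °C, measured at most 1.12. Each 35 against 33 °C change below lies within 1 side of that division, whereas genotype at V4 and side cannot be told apart.

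At 35 against 33 °C several transcripts of the mutant rose more than 20-fold, and of those that changed at least 2-fold most rose. Of 22794 genes tested, 374 were higher at least 2-fold (1.64%) and 36 were lower at least 2-fold (0.158%), by limma on log2(FPKM + 1) with Benjamini-Hochberg adjusted p under 0.05. After scaling the counts were 308 higher (1.35%) and 73 lower (0.320%), with all 36 of the deposited fit among the 73. A rise of at least 4-fold, a log2 change of 2 or more, was called for 54 genes, and a fall of that size for 4. The 3 libraries at 35 °C lay wholly above the 3 at 33 °C in 370 of the 374 risers, and wholly below in 35 of the 36 fallers. Over all genes tested, 7312 lay wholly above (32.1%) and 2344 wholly below (10.3%). The risers and fallers were chosen from these same 6 libraries, so their separation follows largely from that choice.

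Smaller changes were far more numerous, and their balance depended on the scale of the libraries. Without a fold limit, 5746 genes were higher at 35 °C (25.2%) and 1682 lower (7.38%) as deposited. After scaling, 2918 were higher (12.8%) and 3518 lower (15.4%). The share of calls that were rises was 77.4% as deposited and 45.3% after scaling. Scaling moved the median log2 change of all genes, which was 0.12 as deposited, to 0.00. In both fits 2918 genes were called higher and 1682 lower, and 1 gene was called with opposite signs.

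Small falls were more frequent among abundant transcripts than among all genes, while rises of at least 2-fold were not fewer there (1.96%, against 1.64%). Among the 1325 genes with a mean over 100 FPKM in the 6 libraries, 390 were higher (29.4%) and 462 lower (34.9%), with a median log2 change of -0.02. Scaling made this 16.0% higher and 57.3% lower, with a median of -0.17. Among the 6298 genes with a mean of 1 to 5 FPKM, 21.1% were higher and 3.16% lower as deposited, and 13.0% and 6.37% after scaling. Rises of at least 2-fold made up 2.27% of the genes at 1 to 5 FPKM (143), 1.73% at 5 to 20 (119), 1.49% at 20 to 100 (67) and 1.96% above 100 (26), where 1 gene fell as much, and 0.5% below 1 FPKM (19). These counts are a description, since precision and the effect of the added 1 FPKM both change with the level.

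**Figure D1:**
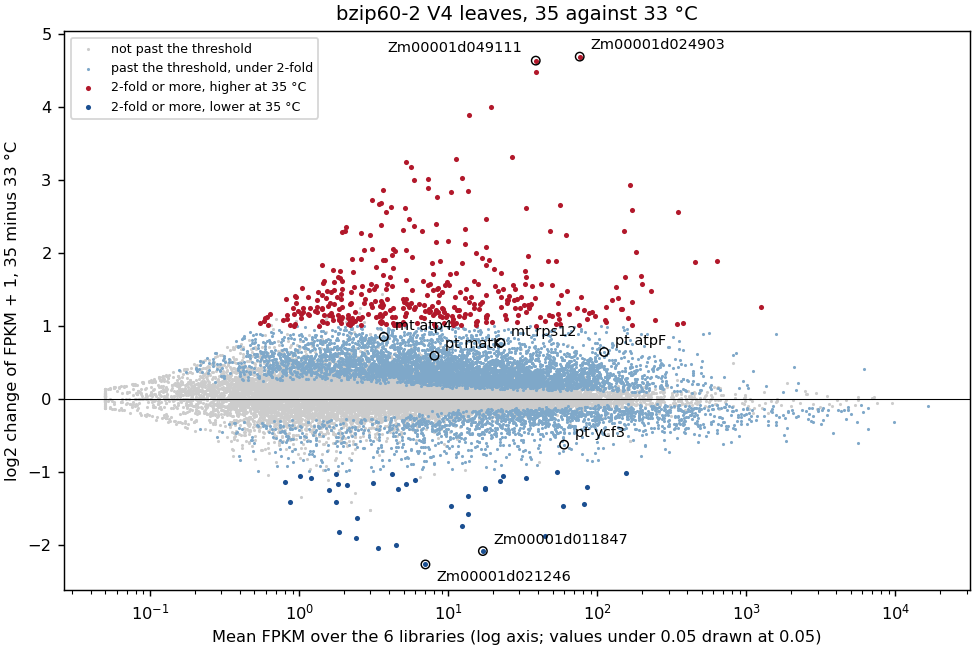
Log2 change of FPKM + 1 at 35 minus 33 °C (vertical axis) against mean FPKM over the 6 libraries (horizontal log axis) for the 22794 genes tested in bzip60-2 V4 leaves, as deposited; mt and pt mark mitochondrial and plastid genes. The 374 red points reach a log2 change of 4.68, while the 36 dark blue points reach -2.27. The 1325 genes with a mean over 100 FPKM have a median of -0.02 and range from -1.01 to 2.93.

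The largest rises belonged to transcripts that were scarce at 33 °C. The nuclear identifiers of the table are paired with no gene name in the sources used here, so no role is given to them. Zm00001d024903 measured 144, 150.1 and 148 FPKM at 35 °C, against 4.73, 4.77 and 4.81 at 33 °C. Its log2 change was 4.68 (SE 0.0777, limma adjusted p = 6.66e-34). The replicates at each temperature differed by a few percent, and the groups were far apart. Zm00001d049111 measured 69.1, 73.2 and 82.8 FPKM at 35 °C, against 2.76, 2.12 and 1.45 at 33 °C. The log2 change was 4.63 (SE 0.158, limma adjusted p = 3.39e-24), again with no overlap between groups. The rule for naming genes required such separation at 35 against 33 °C.

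Of the 2 named falls, Zm00001d011847 was even between replicates and Zm00001d021246 was not. Zm00001d011847 measured 6.12, 5.95 and 5.55 FPKM at 35 °C, against 28.9, 28 and 27.7 at 33 °C, a log2 change of -2.09 (SE 0.106, limma adjusted p = 1.22e-18). Zm00001d021246 measured 1.15, 6.54 and 0.00 FPKM at 35 °C, against 10.2, 15.1 and 9.08 at 33 °C, a log2 change of -2.27 (SE 0.667, limma adjusted p = 0.00755). All 3 values at 35 °C lay below those at 33 °C, as the rule required, but they spread from 0 to over 6 FPKM. Without replicate 3 at 35 °C the change was -1.6 and was not called (limma adjusted p = 0.0913), nor was it in a fit of the 6 libraries alone (adjusted p = 0.0565). Switching off or on was rare: 3 genes were at 0 in all libraries at 33 °C and at 1 FPKM or more in all at 35 °C, and 1 gene the other way.

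**Figure D2:**
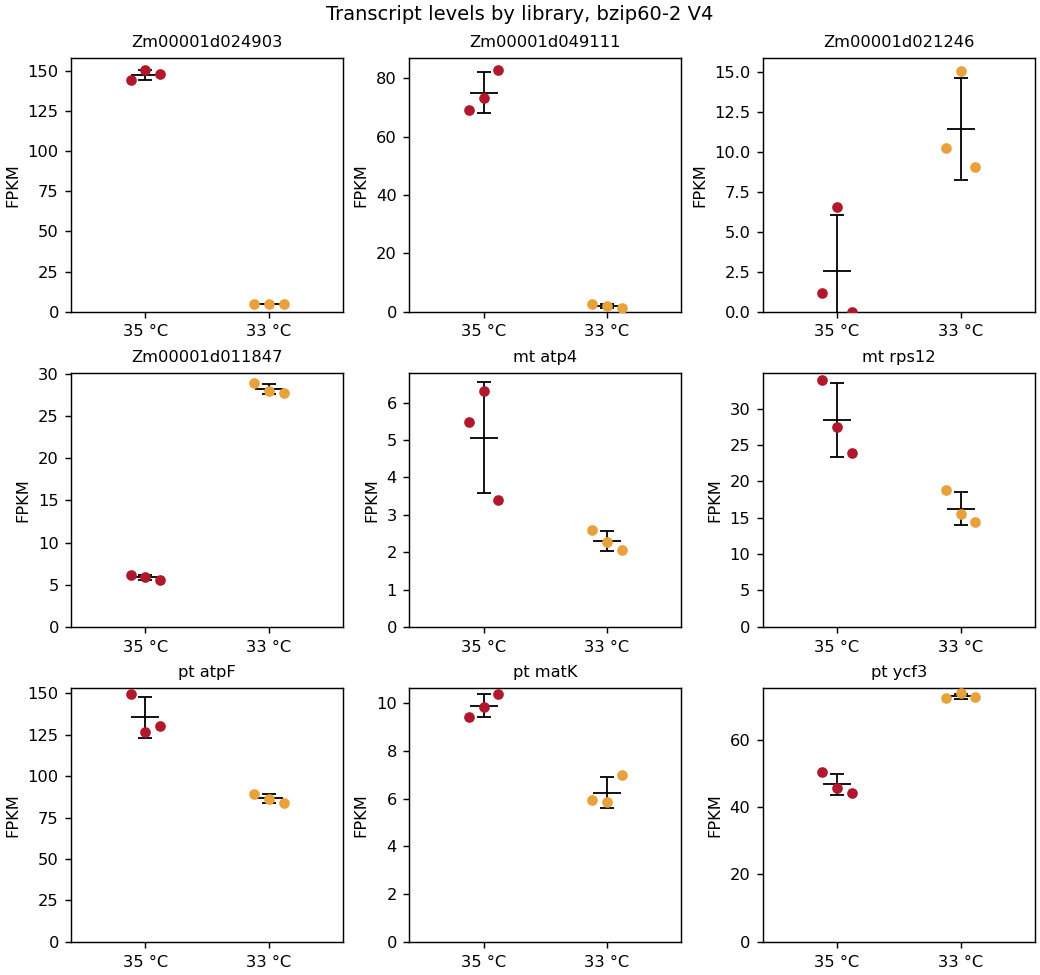
FPKM (linear axes from 0) in each library of bzip60-2 V4 leaves at 35 °C (red) and 33 °C (orange) for the 9 genes named by the rule; points are libraries, and bars the mean and SD of 3. The groups are separate in all 9 panels because the rule required it. Zm00001d021246 has the widest spread for its level, from 0.00 to 6.54 FPKM at 35 °C.

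Organelle transcripts are the genes of this table that carry names. Poly(A) selection leaves out most organelle RNA, whose transcripts are not generally kept with a poly(A) tail, so the values speak of the captured remainder. Of the plastid genes fixed as leaf markers, psaA and psaB of photosystem I measured 14.4 to 17.8 and 12.1 to 13.2 FPKM at 35 °C, against 15.4 to 16.1 and 14.1 to 14.8 at 33 °C. The photosystem II gene psbA and rbcL, for the large subunit of Rubisco, were at 0.41 FPKM or less in all 6. Nuclear markers of leaf cell types could not be looked up, so the leaf label rests on the submitters. The FPKM summed over mitochondrial tags was 130 to 145 at 35 °C and 105 to 109 at 33 °C. The plastid sums were 1851 to 1980 at 35 °C and 1709 to 1762 at 33 °C. As deposited, the libraries at 35 °C lay wholly above those at 33 °C in both organelles. After scaling this held for the mitochondrial sums (133 to 146 at 35 °C, 116 to 125 at 33 °C), while the plastid sums overlapped (1890 to 1991 at 35 °C, 1927 to 1983 at 33 °C).

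Mitochondrial transcripts were higher at 35 °C or not called, and none was called lower. Of 30 named genes in the table, 21 passed the filter on low values and had no identical copy, and 10 of these were called higher (47.6%, against 25.2% of all genes). Their median log2 change was 0.46, against 0.12 for all genes. After scaling 9 were higher (42.9%, against 12.8%) and none lower, with a median of 0.38 against 0.00. Of 44 unnamed reading frames tested, 4 were higher (9.09%, against 25.2% of all genes) and none lower. Over all 65 mitochondrial tags tested, 14 were higher as deposited (21.5%, below that 25.2%) and 12 after scaling, with none lower. Most named genes lay at a few FPKM or less, where the added 1 FPKM makes a change look smaller.

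By role, the ATP synthase genes gave 2 calls of 3 (66.7%, against 25.2% of all genes called higher). atp4, for a subunit of the membrane part of the enzyme, measured 5.48, 6.32 and 3.41 FPKM at 35 °C, against 2.59, 2.28 and 2.06 at 33 °C. Its log2 change was 0.85 (SE 0.178, limma adjusted p = 2.71e-04). Even the lowest library at 35 °C lay above the highest at 33 °C, which the rule for naming genes required. atp4 overlaps a transfer RNA gene in RefSeq's gene order, so reads of both may be shared. The other call, atp6, whose product forms part of the proton channel, averaged 2.96 ± 0.660 FPKM at 35 °C and 1.83 ± 0.378 at 33 °C (SD, n = 3 each), a log2 change of 0.48. The third gene, atp8, averaged 1.10 ± 0.209 FPKM at 35 °C and 1.02 ± 0.548 at 33 °C and was not called.

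The mitochondrial cytochrome oxidase genes cox1, cox2 and cox3, for the core subunits of the terminal respiratory enzyme, were each called higher, with log2 changes of 0.48, 0.55 and 0.58. They averaged 1.5 ± 0.374, 2.44 ± 0.911 and 2.84 ± 0.476 FPKM at 35 °C, against 0.793 ± 0.231, 1.29 ± 0.280 and 1.6 ± 0.567 at 33 °C. cob, for cytochrome b, was at 0.277 ± 0.0462 FPKM at 35 °C and 0.220 ± 0.0346 at 33 °C and was not called. With cob included, 3 of 4 genes were called higher (75.0%, against 25.2% of all genes). In these genes the calls were fragile: cox3 was lost after scaling (adjusted p = 0.0877) and without any of 3 single libraries (33 °C replicates 1 and 2, and 35 °C replicate 2), cox2 without 35 °C replicate 1, and atp6 without 33 °C replicate 2 or 35 °C replicate 3. Of the 5 genes of complex I (NADH dehydrogenase), 1 was called higher (20.0%, against 25.2% of all genes). This was nad4 (log2 change 0.46, lost without 33 °C replicate 3). nad9, at 6.10, 4.20 and 3.77 FPKM at 35 °C against 2.32, 3.02 and 3.84 at 33 °C, overlapped between the groups and was not called.

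Of 6 mitochondrial ribosomal protein genes, 3 were called higher (50.0%, against 25.2% of all genes). rps12, for a small-subunit protein near the decoding site, measured 33.9, 27.4 and 23.9 FPKM at 35 °C, against 18.8, 15.5 and 14.5 at 33 °C. Its log2 change was 0.76 (SE 0.166, limma adjusted p = 3.76e-04), and the groups did not overlap, as the rule for naming genes required. rps2B measured 4.89, 4.85 and 4.52 FPKM at 35 °C, against 1.97, 2.15 and 3.99 at 33 °C, a log2 change of 0.68. rps2B overlaps an unnamed reading frame in RefSeq's gene order, so reads of both may be shared. The mitochondrial rps4 was listed at 0 in all 3 libraries at 33 °C and at 1.58, 0.60 and 0.37 FPKM at 35 °C, and its call was lost without 35 °C replicate 1. ccmFN, of cytochrome c maturation, was called higher in all 13 alternatives that tested it. It averaged 0.713 ± 0.0351 FPKM at 35 °C and 0.280 ± 0.106 at 33 °C, too low for the filter on the compared libraries.

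Plastid transcripts moved both ways. Of 52 named genes considered, 26 passed the filter and had no identical copy, of which 5 were called higher and 1 lower (23.1% called, against 32.6% of all genes). After scaling 2 were higher (7.69%, against 12.8% of all genes) and 2 lower (7.69%, against 15.4%). Their median log2 change was 0.10 as deposited and -0.02 scaled, close to the 0.12 and 0.00 of all genes. Of the genes left out for an identical copy, rpl2 of the ribosome was called lower (log2 change -0.35, limma adjusted p = 0.0131, and -0.49 scaled) and ndhB was not called.

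The rises of atpF and matK held under both scalings. atpF, for a stalk subunit of the chloroplast ATP synthase, measured 150, 127 and 130 FPKM at 35 °C, against 89.3, 86.0 and 84.0 at 33 °C. The log2 change was 0.64 (SE 0.0813, limma adjusted p = 5.17e-08), and 0.49 scaled. atpI and atpH, its neighbours on 1 side in RefSeq's plastid order, did not pass the test, with 17.4 ± 0.530 and 7.77 ± 0.897 FPKM at 35 °C, against 18.9 ± 1.3 and 7.80 ± 3.67 at 33 °C. atpA, on the other side, was listed at 0 in all 6 libraries. The second rise, matK, for a maturase that helps splice group II introns, measured 9.42, 9.83 and 10.4 FPKM at 35 °C, against 5.92, 5.84 and 6.99 at 33 °C. Its log2 change was 0.59 (SE 0.116, limma adjusted p = 1.10e-04), with no overlap, as the rule for naming genes required. matK lies within the interval of a transfer RNA gene, so reads of both may be shared.

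The plastid gene ycf3, for a factor that helps assemble photosystem I, fell. It measured 50.2, 45.8 and 44.2 FPKM at 35 °C, against 72.2, 73.7 and 72.5 at 33 °C, a log2 change of -0.63 (SE 0.0982, limma adjusted p = 2.66e-06) and -0.78 scaled. Next to it in RefSeq's order stands psaA, and then psaB, whose log2 changes were 0.01 and -0.20 and did not pass as deposited. After scaling psaB was called lower (-0.34, limma adjusted p = 0.0104).

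The other plastid rises were smaller and did not pass after scaling. ndhK, of the NDH complex of cyclic electron flow, was the most abundant named plastid gene, at 477, 450.0 and 450.0 FPKM at 35 °C, against 399, 389 and 407 at 33 °C. Its log2 change was 0.21 as deposited and 0.05 scaled. The ribosomal rps3 (log2 change 0.27) and the RNA polymerase gene rpoC1 (0.35) were likewise called as deposited only, and each was lost without some single libraries.

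**Figure D3:**
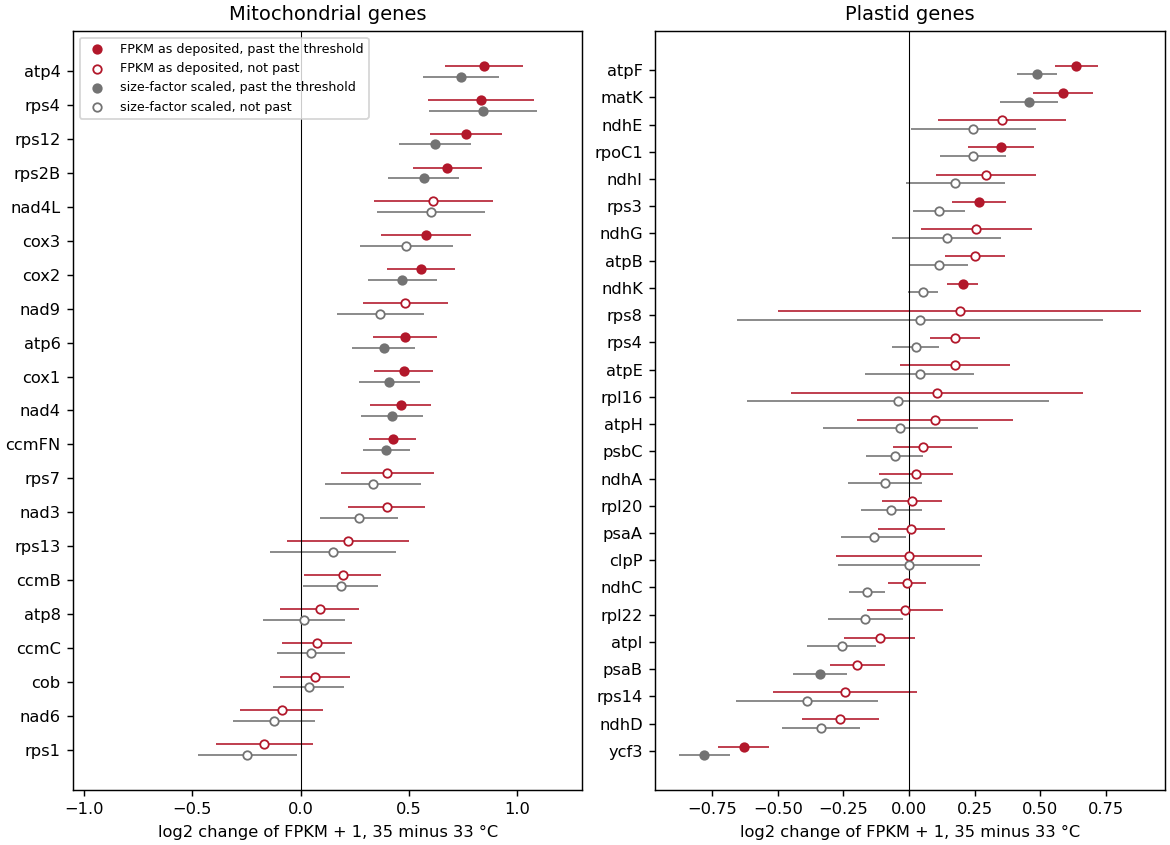
Log2 change of FPKM + 1 at 35 minus 33 °C with its SE for 21 mitochondrial (left) and 26 plastid (right) named genes in bzip60-2 V4 leaves, as deposited (red) and size-factor scaled (grey); filled points passed an adjusted p of 0.05. Mitochondrial points lie mostly right of 0 in both scalings, 19 of 21 as deposited, while plastid points lie on both sides.

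The 374 rises of at least 2-fold were then read in the other 35 against 33 °C comparisons, which share no library with this one. In W22 V4 leaves 269 of them were called higher (71.9%, against 31.1% of all genes) and 6 lower (1.6%, against 7.98%). The median log2 change of the list was 0.86 in W22 at V4 and 1.31 in the mutant, where the list was chosen by this very value. In bzip60-2 at V5, 228 were called higher (61.0%, against 16.9% of all genes) and 33 lower (8.82%, against 26.2%). In W22 at V5, 216 were called higher (57.8%, against 13.0%) and 47 lower (12.6%, against 38.3%). Rises of at least 2-fold shared between the mutant and W22 at V4 numbered 161, which is 43% of the mutant's 374 and 37.9% of the 425 of W22 (1.86% of all genes). Over the wider step of 37 against 31 °C in the mutant at V4, which crosses the library division, 216 of the 374 were called higher (57.8%, against 33.5% of all genes) and 62 lower (16.6%, against 21.7%).

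The 36 falls of at least 2-fold were read in the same way. In W22 at V4, 22 of them were called lower (61.1%, against 7.98% of all genes) and none higher. In bzip60-2 at V5, 16 were lower (44.4%, against 26.2%) and 4 higher (11.1%, against 16.9%). In W22 at V5, 15 were lower (41.7%, against 38.3%) and 10 higher (27.8%, against 13.0%), so the share of falls there was near that of all genes. Falls of at least 2-fold shared with the mutant at V4 numbered 13 in W22 at V4 and 12 in each V5 series. The 13 made up 13.8% of the 94 such falls in W22 at V4. At V5 the shared falls made up 2.37% of the 507 in bzip60-2 and 1.43% of the 841 in W22.

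Whether the mutant's change differed from that of W22 was tested as the difference between the 2 changes at V4. It passed for 3547 genes (15.6%): 1437 with a more positive change in the mutant (6.30%) and 2110 with a more negative one (9.26%). After scaling the counts were 1849 (8.11%) and 1685 (7.39%), so the direction of the balance depends on the scaling. At least 2-fold differences numbered 178 positive (0.781%) and 128 negative (0.562%). The breakdown that follows was made on the deposited values only. In W22 at V4, 7092 genes (31.1%) were called higher and 1818 (7.98%) lower on these values, and 3437 and 4060 after scaling. Of the 2110 negative differences, 1062 were genes called higher in W22 and not called in the mutant, 428 were called higher in both, 321 were called lower in the mutant and not called in W22, and 203 were called lower in the mutant and higher in W22. Among the 1437 positive ones, 575 were called higher in the mutant and not called in W22. Another 364 were called lower in W22 and not called in the mutant. Of the rest, 195 were called higher in both, 138 lower in both, and 120 higher in the mutant and lower in W22.

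Zm00001d028750 had the largest negative difference. It measured 14.2, 16.4 and 15.6 FPKM at 35 °C in the mutant, against 11.9, 12.6 and 13.5 at 33 °C. In W22 it measured 428, 412 and 441 FPKM at 35 °C, against 19.4, 18.8 and 18.7 at 33 °C. The difference of the log2 changes was -4.16 (SE 0.0966, limma adjusted p = 1.26e-28). In W22 the transcript rose more than 20-fold, while the mutant's libraries moved little: its own log2 change of 0.26 was called as deposited and not after scaling (0.12, limma adjusted p = 0.178). In the mutant at 37 °C the transcript reached 91.2 ± 3.53 FPKM, against 3.83 ± 0.285 at 31 °C (SD, n = 3 each), so it was not fixed at a low level there.

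Zm00001d024852 went the other way. It measured 9.54, 10.9 and 12.3 FPKM at 35 °C in the mutant, against 0.17, 0.35 and 0.46 at 33 °C. In W22 it stayed at 0.41 FPKM or less in all 6 libraries. The difference was 2.97 (SE 0.204, limma adjusted p = 5.99e-14). In W22 at V5, however, the log2 change of this transcript was 2.09, so its rise at 35 °C was not limited to the mutant. Both transcripts that led the mutant's rises differed too: the change of Zm00001d049111 was larger in the mutant by 2.05 and that of Zm00001d024903 smaller by 0.90 on the log2 scale (limma adjusted p = 6.31e-09 and 7.91e-08). At 35 °C Zm00001d024903 was at 147 ± 3.13 FPKM in the mutant and 154 ± 1.67 in W22, while at 33 °C it was at 4.77 ± 0.0400 in the mutant and 2.25 ± 0.354 in W22 (SD, n = 3 each).

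The other named differences rest on fewer libraries. BGI_novel_G001200, an identifier outside the Zm00001d series, was listed at 0 in all 6 mutant libraries. In W22 it measured 7.63, 4.99 and 0.00 FPKM at 35 °C against 25, 43 and 31 at 33 °C. The difference of 3.16 (limma adjusted p = 0.0199) thus reports the fall in W22 alone, and it was 2.21 and not called without W22 35 °C replicate 3. In bzip60-2 at V4 and 31 °C, whose libraries lie with W22 in the division by Zm00001d033132, BGI_novel_G001200 measured 8.93 to 26.5 FPKM. For Zm00001d021246 the difference was -2.69 (limma adjusted p = 0.0466). It was lost in 14 of 20 alternatives, single libraries of either genotype included.

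Among organelle genes, differences between the genotypes were all negative: 4 of 21 mitochondrial genes (19%) and 4 of 26 plastid genes (15.4%), against 9.26% of all genes with a negative difference. After scaling, 4 mitochondrial and 2 plastid genes (7.69%, against 7.39% of all genes) passed. The mitochondrial nad3, of complex I, measured 6.65, 6.91 and 7.15 FPKM at 35 °C in the mutant, against 4.09, 5.69 and 5.35 at 33 °C. In W22 it measured 5.62, 7.56 and 7.79 FPKM at 35 °C, against 2.41, 1.64 and 2.46 at 33 °C. The difference was -0.94 (SE 0.251, limma adjusted p = 0.00747). Levels at 35 °C overlapped between the genotypes, and it was at 33 °C that the mutant stood wholly above W22. nad3 lies next to rps12, whose difference of -0.58 did not pass (limma adjusted p = 0.0934) and passed when 1 of 3 single libraries was left out (35 °C replicate 1 of the mutant, or 33 °C replicate 3 or 35 °C replicate 1 of W22). rps2B gave -0.75 (limma adjusted p = 0.0170), lost without 33 °C replicate 3 of the mutant or 33 °C replicate 2 of W22.

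The plastid ndhC, also of the NDH complex and next to ndhK, was at 393 ± 21.1 FPKM at 35 °C and 396 ± 34.8 at 33 °C in the mutant, and at 489.9 ± 8.78 FPKM at 35 °C and 379 ± 43.6 at 33 °C in W22 (SD, n = 3 each). The difference was -0.38 (SE 0.103, limma adjusted p = 0.00734). The mutant's own change was -0.01. The other calls were ndhD, at -0.94, and rps13, rps7, ndhK and ycf3, the last 4 of which were each lost without some single libraries.

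**Figure D4:**
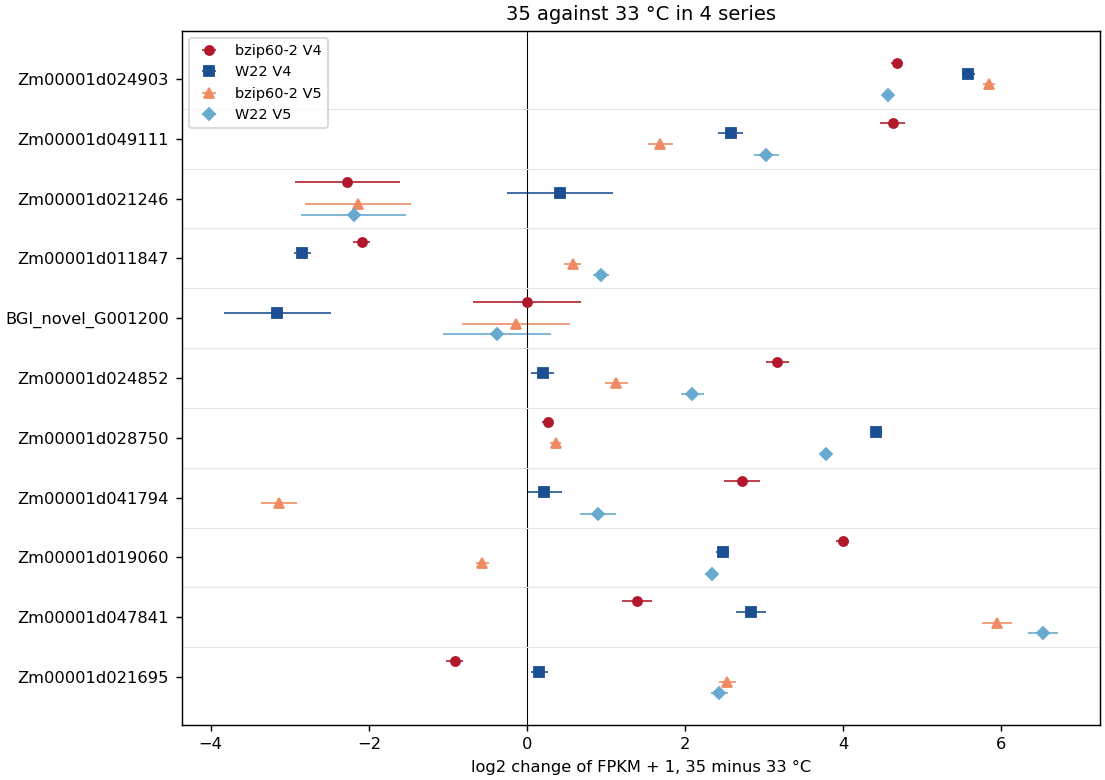
Log2 change of FPKM + 1 at 35 minus 33 °C with its SE in bzip60-2 V4 (red circles), W22 V4 (blue squares), bzip60-2 V5 (orange triangles) and W22 V5 (light blue diamonds) for the 11 identifiers named by the rule. Zm00001d028750 is near 0 in both mutant series and at 4.42 and 3.79 in W22, while Zm00001d041794 is at 2.72 in bzip60-2 V4 and -3.14 in bzip60-2 V5.

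Within the mutant, the change at V4 differed from the change at V5 for 8453 genes (37.1%), with 6501 more positive at V4 (28.5%) and 1952 more negative (8.56%). After scaling these were 2866 (12.6%) and 3835 (16.8%). Differences of at least 2-fold numbered 836 positive (3.67%) and 292 negative (1.28%) as deposited, and 461 (2.02%) and 436 (1.91%) after scaling. Of the 374 rises at V4, 207 were more positive at V4 than at V5 and 52 more negative. The list was chosen by its change at V4, and this choice itself favours positive differences.

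Zm00001d041794 and Zm00001d019060 moved in opposite directions at the 2 stages. Zm00001d041794 measured 7.01, 4.85 and 6.33 FPKM at 35 °C at V4, against 0.00, 0.19 and 0.00 at 33 °C. At V5 it measured 1.6, 0.55 and 0.74 FPKM at 35 °C, against 16.1, 16.7 and 14.8 at 33 °C. The difference was 5.86 (SE 0.319, limma adjusted p = 1.35e-17), and the groups were separate at both stages. Zm00001d019060 averaged 37.3 ± 3.37 FPKM at 35 °C and 1.4 ± 0.125 at 33 °C at V4, and 20.8 ± 1.49 at 35 °C and 31.2 ± 0.108 at 33 °C at V5 (SD, n = 3 each), a difference of 4.56 (limma adjusted p = 2.04e-27).

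Zm00001d047841 rose at both stages, and more at V5. It averaged 1.84 ± 0.691 FPKM at 35 °C and 0.0600 ± 0.104 at 33 °C at V4, and 78.2 ± 6.27 at 35 °C and 0.293 ± 0.188 at 33 °C at V5 (SD, n = 3 each). The difference was -4.55 (limma adjusted p = 1.28e-16). Zm00001d021695 fell at V4, to 15.4 ± 1.87 FPKM at 35 °C against 29.8 ± 0.550 at 33 °C, and rose at V5, to 29.1 ± 1.45 at 35 °C against 4.19 ± 0.156 at 33 °C. Its difference was -3.45 (limma adjusted p = 2.42e-20). Zm00001d011847, a fall at V4, rose at V5 (log2 change 0.58), a difference of -2.67.

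The mitochondrial rises were called at V4 in both genotypes, with few calls at V5. Of the 21 named genes, 13 were called higher in W22 at V4 (61.9%, against 31.1% of all genes), 1 in bzip60-2 at V5 (4.76%, against 16.9%) and 0 in W22 at V5 (against 13.0%; 1 of 21 there after scaling, against 21.4%), and none was called lower in these 3 comparisons. The median log2 changes were 0.64, 0.08 and 0.06. Tested directly in the mutant, the V4 change exceeded the V5 change for 5 of the 21 as deposited (23.8%, against 28.5% of all genes) and for 2 after scaling (9.52%, against 12.6%). These shares are no higher than those of all genes, so the counts of positive calls show nothing particular to mitochondrial genes. The median difference of the 21 was 0.39, against 0.19 for all genes, and after scaling 0.32 against -0.0015. Whether the 21 differ from all genes as a set was not tested. rps12 passed both as deposited and after scaling, with a difference of 1.01 (SE 0.234, limma adjusted p = 7.67e-04). At V5 rps12 was at 46.6 ± 5.08 FPKM at 35 °C and 55.4 ± 4.18 at 33 °C (SD, n = 3 each). atp4, at 11.5 ± 0.733 FPKM at 35 °C and 10.8 ± 0.160 at 33 °C at V5, gave 0.77 as deposited and did not pass after scaling (0.59, limma adjusted p = 0.0735).

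Plastid genes at the 2 stages gave 1 positive difference of 26 (3.85%, against 28.5% of all genes) and 3 negative ones (11.5%, against 8.56%). After scaling 1 was positive (3.85%, against 12.6% of all genes) and 5 negative (19.2%, near the 16.8% of all genes). clpP, for the catalytic subunit of the chloroplast Clp protease, was listed at 0 in all 6 mutant libraries at V4. At V5 it measured 0.47, 0.81 and 2.03 FPKM at 35 °C, against 22.2, 25.5 and 21.8 at 33 °C, so that the difference of 3.59 (limma adjusted p = 1.89e-09) reports the fall at V5. At V4 and 31 °C the mutant had 5.01, 17.1 and 6.60 FPKM. rpl22 and rps3, which lie side by side in the plastid and encode ribosomal proteins, rose at V5, to 71.6 ± 12.8 and 243 ± 17.6 FPKM at 35 °C against 40.8 ± 3.83 and 138 ± 4.90 at 33 °C (SD, n = 3 each). At V4 rpl22 was at 89.5 ± 7.93 FPKM at 35 °C and 90.5 ± 7.48 at 33 °C, and rps3 at 409 ± 28.8 at 35 °C and 339 ± 19.5 at 33 °C. Their differences were -0.80 and -0.54 (limma adjusted p = 0.00230 and 0.00338). ndhD gave the remaining negative difference, at -0.62. That call was lost in 4 of 20 alternatives, each a fit without 1 library. In the mutant at V4 ndhD averaged only 0.587 FPKM at 35 °C and 0.903 at 33 °C. atpF, matK and ycf3 changed in bzip60-2 at V5 in the same direction as at V4, with log2 changes of 0.60, 0.58 and -0.58.

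Across the 4 temperatures, several of these transcripts were not monotonic in V4 leaves of the mutant. Zm00001d049111 averaged 10.9 ± 0.739, 2.11 ± 0.655, 75.0 ± 7.06 and 22.4 ± 1.59 FPKM at the rising temperatures of 31, 33, 35 and 37 °C (SD, n = 3 each). Zm00001d011847 was at 4.56 ± 1.06, 28.2 ± 0.641, 5.87 ± 0.293 and 20.0 ± 1.22 FPKM in the same order. Zm00001d024903 had its step between 33 and 35 °C, from 3.47 ± 0.0404 and 4.77 ± 0.0400 FPKM at the 2 lower temperatures to 147 ± 3.13 and 176 ± 4.07 at the 2 higher. The libraries at 31 °C lie on the other side of the division by Zm00001d033132, and its part in these values was not tested. Zm00001d021246 was at 0 in all 3 libraries at 37 °C.

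**Figure D5:**
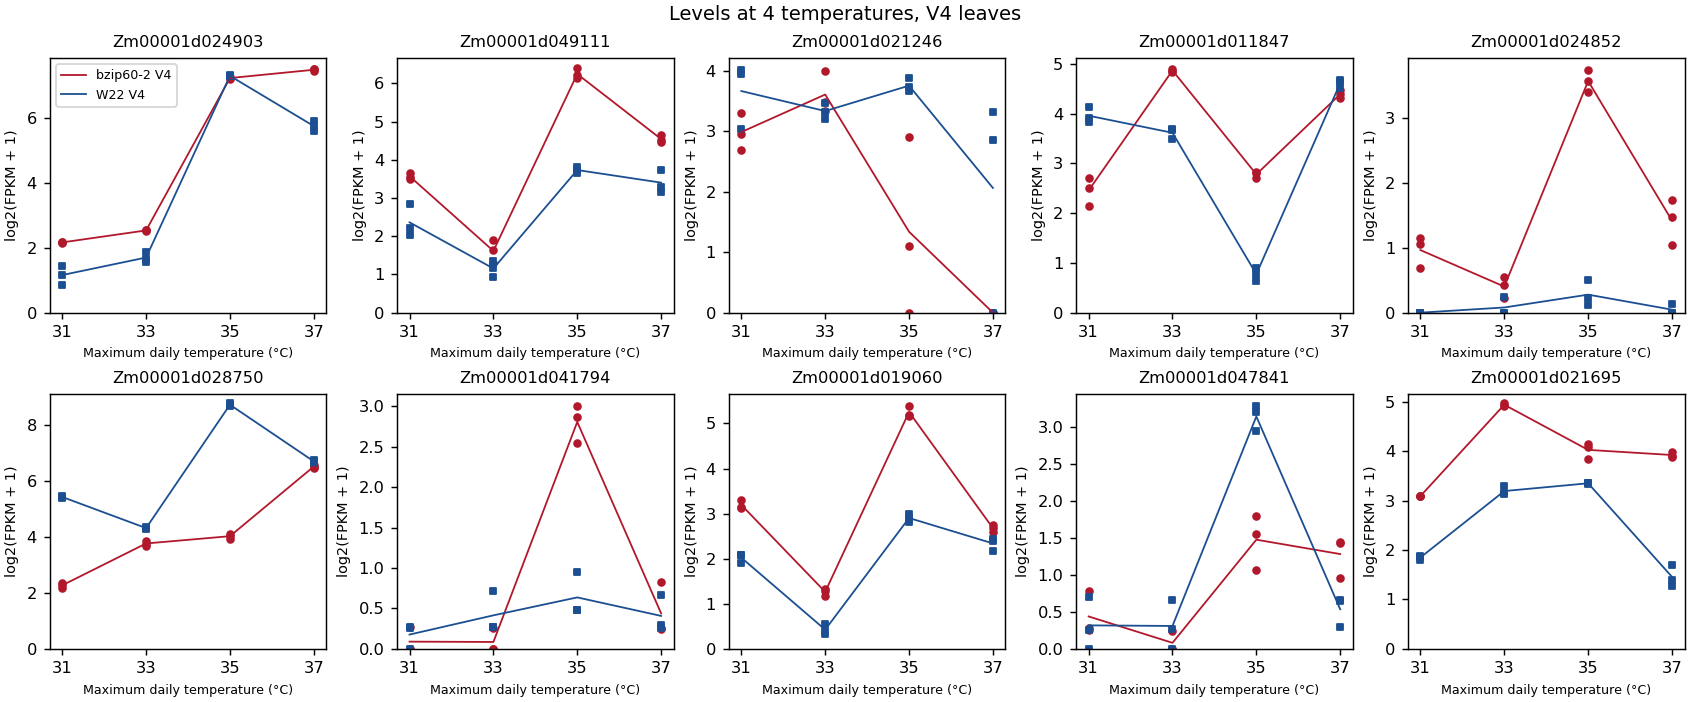
log2(FPKM + 1) at maximum daily temperatures of 31, 33, 35 and 37 °C in V4 leaves of bzip60-2 (red circles) and W22 (blue squares) for 10 nuclear identifiers; points are libraries and lines join group means of the log values. Zm00001d049111, Zm00001d024852, Zm00001d041794 and Zm00001d019060 peak at 35 °C in the mutant, and Zm00001d028750 peaks at 35 °C in W22.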

How the data were processed

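Leaf poly(A) RNA was sequenced as single-end reads for 48 libraries, 3 in each of 16 groups, with libraries and sequencing by BGI, per the labels' protocols. The authors deposited FPKM per gene to 2 decimals, per the file headers. The submitters' processing notes name RSEM 1.2.12, Bowtie2 2.2.5, HISAT, HISAT2 2.0.4 and DESeq2 1.4.5 without a role. The build of the genome is not given in the sources used here. With FPKM alone no count model applied, and values were tested as log2(FPKM + 1), which understates changes of low genes. How reads of near-identical or overlapping genes were divided is unknown; 1189 genes share all values with another.

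Genes with at least 1 FPKM in at least 3 of 48 libraries were kept (22794 of 33309). limma 3.58.1 in R 4.3.3 was fitted with 16 group means (mean-variance trend), two-sided, Benjamini-Hochberg adjusted over all genes tested at 0.05. The 2 differences between changes share the libraries of the 35 against 33 °C comparison in the mutant. Each size factor is a library's median ratio to the geometric means of 20226 genes. The fit was tested on simulated data. Figures used Python 3.11.15 and matplotlib 3.10.9.

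Replicates are described once as drawn from several plants and once as 1 of 3 plants; p values measure the spread between these samples.

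The libraries, lists and tests were chosen with earlier results of these data known. None of the 30432 nuclear identifiers matched the RefSeq table of names (assembly Zm-B73-REFERENCE-NAM-5.0), so 19 planned nuclear gene lists could not be formed; all 150 mitochondrial and 61 plastid tags matched, and organelle families were formed after their values were seen. Named are at most 2 unannotated identifiers per direction, and named organelle genes up to 12 per direction (4 for the differences). These had to pass in both scalings with 1 sign, reach a mean of 5 FPKM in the higher group and, for 35 against 33 °C, have groups that do not overlap. Genes with an identical copy were left out. Of the plastid genes, 1 is not reported here and is left out of the plastid counts. Organelle genes quoted beyond this were chosen after their values were seen. Alternatives tried were size-factor scaling, no filter, a filter on the compared libraries, a pseudocount of 0.1, the compared libraries alone, a replicate block, array weights, no trend and leaving out each library.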

Additional observations from a re-analysis of the deposited data

Results flagged for a closer look

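The genes below were singled out because their 35 against 33 °C change differed between genotypes or between stages in a limma test of that difference (adjusted p under 0.05); values are differences of log2 changes of FPKM + 1, the change in bzip60-2 at V4 minus the other.

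Against W22 at V4, the difference was positive for BGI_novel_G001200 (3.16), Zm00001d024852 (2.97), Zm00001d049111 (2.05) and Zm00001d011847 (0.75). It was negative for Zm00001d028750 (-4.16), Zm00001d021246 (-2.69) and Zm00001d024903 (-0.90). Among mitochondrial genes it was -1.37 for rps13, -0.94 for nad3, -0.89 for rps7 and -0.75 for rps2B. Among plastid genes it was -0.94 for ndhD, -0.39 for ycf3, -0.38 for ndhC and -0.24 for ndhK; those of ycf3 and ndhK did not pass after scaling (adjusted p = 0.0880 and 0.0951).

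Against bzip60-2 at V5, the difference was positive for Zm00001d041794 (5.86), Zm00001d019060 (4.56) and Zm00001d049111 (2.94). It was negative for Zm00001d047841 (-4.55), Zm00001d021695 (-3.45), Zm00001d011847 (-2.67) and Zm00001d024903 (-1.16). The mitochondrial genes gave 1.06 for nad4L, 1.01 for rps12, 0.82 for nad3, 0.77 for atp4 and 0.41 for ccmFN. Of these, nad4L and rps12 also passed after scaling. The call of nad4L was lost in 7 of 19 alternatives, and that of rps12 in 0 of 20. In the mutant at V4, nad4L averaged only 0.717 FPKM at 35 °C and 0.12 at 33 °C. The plastid genes gave 3.59 for clpP, -0.80 for rpl22, -0.62 for ndhD and -0.54 for rps3. The call of ndhD was lost in 4 of 20 alternatives.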

How the results depend on the processing

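Size-factor scaling moved the balance of calls most. At 35 against 33 °C it gave 2918 genes higher and 3518 lower, with 73 lower at least 2-fold; for the difference between stages it gave 2866 positive, 3835 negative and 461 positive at least 2-fold. A pseudocount of 0.1 moved the counts of at least 2-fold changes, to 905 higher and 123 lower at 35 against 33 °C, to 380 positive and 302 negative between genotypes, and to 1516 positive between stages. All other counts stayed within 1.5 times. Leaving out 1 library gave 6252 to 6823 genes at 35 against 33 °C (366 to 385 higher and 38 to 46 lower at least 2-fold), 3097 to 3378 between genotypes and 7577 to 8160 between stages. The sign changed in leave-one-out fits for ndhC (-0.0610 to 0.0606) and rpl22 (-0.0866 to 0.0501) at 35 against 33 °C in the mutant, neither of which was called. Same-numbered replicates did not deviate together (correlations of -0.00696, 0.0282 and 0.0358 at 35 against 33 °C in the mutant), so the numbers do not pair them; with a replicate block the calls were 7383, 3518 and 8427 for the 3 comparisons. A fit of the compared libraries alone gave 5699 genes at 35 against 33 °C, 2823 between genotypes and 8080 between stages. The main fit gave 7428, 3547 and 8453. With the compared libraries alone, the calls of nad4, cox1, cox2, cox3, atp6, rps2B, rpoC1 and Zm00001d021246 at 35 against 33 °C were lost. Genes near 0 FPKM are limited by depth, which is unknown.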
